A study of Mus musculus with 8 samples.

Results

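Matrix metalloproteinases (MMPs), ADAMTS proteases, ADAMTS-like proteins and tissue inhibitors of metalloproteinases (TIMPs) were examined in mouse cells labelled adipocytes, as 50 of the 49671 gene IDs counted. They were taken as the protein-coding genes whose symbols start with Mmp, Adamts, Adamtsl or Timp followed by a digit, which gave 22, 19, 5 and 4 genes. Polyadenylated RNA was sequenced from 4 samples of BMPR2 DELX mutant mice and 4 samples of ROSA mice, the study's control. The labels used here name no age, sex, strain, allele structure, promoter or inducing agent for either group, and do not say whether each sample is a separate animal, so p-values measure the spread between samples.

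MMPs are zinc enzymes that cleave collagens, other matrix proteins and cell surface proteins, and most are made as inactive precursors that need activation outside the cell. ADAMTS proteases bind matrix through thrombospondin repeats and cut proteoglycans, procollagens and other large matrix proteins, while ADAMTS-like proteins share the repeats but lack the protease domain. TIMPs bind the active site of these enzymes, and Timp3, which is held in the matrix, also inhibits several ADAMTS proteases. In fat and its stroma these proteins remodel the matrix around growing adipocytes and vessels.

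The main pattern was a rise of 7 proteases or protease-like genes beside a fall of 3 MMPs and of the inhibitor gene Timp3. Levels are given as CPM, the usual count of a gene divided by the library's total, scaled by trimmed mean of M values (TMM) factors, and genes were called at an adjusted p below 0.05 in the edgeR quasi-likelihood test over all genes. Of the 50 members, 38 had enough counts to be tested, and 11 of these, or 28.9%, were called, 7 higher and 4 lower in BMPR2 DELX. Without Adamts15, which passed the count filter through BMPR2 DELX libraries alone, 10 of 37 were called, or 27.0%, 6 higher and 4 lower. Over all 14887 genes tested, 9.10% were called, 3.96% higher and 5.15% lower. Of the tested members, 27 were not called. The higher genes were Adamts4, Adamts15, Adamtsl1, Mmp2, Mmp11, Mmp19 and Mmp23, and the lower ones were Mmp10, Mmp13, Mmp16 and Timp3. The median log2 fold change of BMPR2 DELX over ROSA was 0.14 over the tested members and 0.005 over all genes tested, and the median of its size was 0.39 and 0.17. All 4 libraries of one group lay beyond all 4 of the other for 13 tested members, namely the 11 called ones, Mmp28 and Adamts14, 8 higher and 5 lower, against 18.0% of all genes tested, 8.32% higher and 9.65% lower. A total of 17 tested members had an unadjusted edgeR p below 0.05, against 26.3% of all genes tested. Without Adamts15, 12 of 37 members had no overlap, 7 higher and 5 lower, and 16 had such a p. The median log2 fold change was then 0.12 and the median of its size 0.38.

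Most counts of the members came from TIMP genes in every library. The 3 tested TIMP genes summed to 3226, 3228, 3795 and 3942 CPM in BMPR2 DELX libraries, against 5268, 5411, 4778 and 4421 CPM in ROSA libraries. Every BMPR2 DELX library was below every ROSA library in this sum. The 17 tested MMP genes summed to 1058, 1100, 1397 and 1287 CPM in BMPR2 DELX, against 965, 909, 860 and 971 CPM in ROSA. Here every BMPR2 DELX library was above every ROSA library. The 13 tested ADAMTS genes summed to 936 to 1371 CPM in BMPR2 DELX and 805 to 992 CPM in ROSA, and the 5 ADAMTS-like genes to 97.3 to 133 CPM and 119 to 136 CPM, with overlap in both families. These sums are descriptions of counts, to which long transcripts add more reads, and were not tested. A few genes with many counts carry them. In the MMP sum the largest parts were Mmp14, whose groups overlapped, and Mmp2, at 258 to 369 CPM in BMPR2 DELX and 112 to 211 CPM in ROSA. Of the TIMP genes, Timp1 and Timp2 overlapped and Timp3 did not. The separate sums are thus no sign that each gene of a family shifted.

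**Figure D1:**
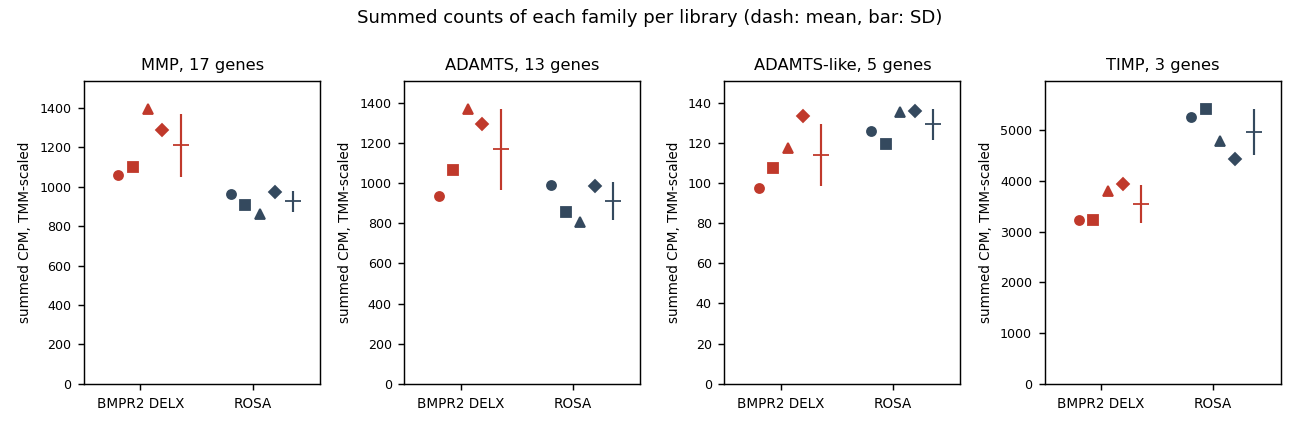
Summed TMM-scaled CPM of the tested members of each family in every library, BMPR2 DELX left and ROSA right, with the mean and SD of 4 libraries beside the points. MMP sums lie at 1058 to 1397 CPM in BMPR2 DELX, above all ROSA libraries, and TIMP sums at 3226 to 3942 CPM, below all ROSA libraries, while the ADAMTS and ADAMTS-like sums overlap. A few genes with many counts carry each sum, so it does not show a shift of each gene.

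The libraries differed in other measures too. Totals ran from 28799445 to 43684785 counts per library. Bmpr2 itself had 211 ± 17.6 CPM in BMPR2 DELX, against 197 ± 17.05 CPM in ROSA (SD, n = 4 each, as for all means below; edgeR adjusted p 0.47). Such a total cannot tell an altered transcript of the gene from an intact one. Of the 15 adipocyte markers, 7 were too low to be tested, with at most 6 counts of Adipoq, 9 of Slc2a4, 3 of Retn, 2 of Plin1 and 1 of Lep, Cidec or Cfd in any library. Others were expressed, among them Fabp4 at 49.9 ± 11.4 CPM in BMPR2 DELX, against 61.0 ± 11.9 CPM in ROSA, and Pparg at 21.8 ± 3.49 CPM, against 16.1 ± 2.67 CPM. All marker sums here and below are in CPM without TMM factors. These factors were 1.00 to 1.06 in BMPR2 DELX and 0.918 to 0.993 in ROSA, so unscaled sums stand relatively higher in BMPR2 DELX than scaled ones. The adipocyte markers summed to 334 to 398 CPM in BMPR2 DELX and 241 to 293 CPM in ROSA. Of the 8 tested, Lpl was called, higher, at 210 ± 34.5 CPM, against 140 ± 17.7 CPM in ROSA with TMM factors. The 12 fibroblast and stromal markers summed to 11256 to 15523 CPM and 9448 to 11974 CPM, with Col3a1 and Dpp4 higher and 9 of 11 tested markers not called. Dpp4 had at most 17 counts in a library. Like Adamts15, it stayed below the filter level of 0.291 CPM, without TMM factors, in every ROSA library. The 12 macrophage markers summed to 42.2 to 74.0 CPM and 25.6 to 38.7 CPM, with Cd68 higher and Ptprc at no more than 18 counts in a library. The 12 endothelial markers summed to 659 to 2314 CPM and 1026 to 2024 CPM, and of the 11 tested 0 were called by edgeR, with 0 at an unadjusted p below 0.05. The 11 epithelial and mesothelial markers summed to 78.9 to 119 CPM and 74.0 to 93.1 CPM, with a median log2 fold change of 1.30 over 9 tested. Of these 9, 7 had positive log2 fold changes. An unadjusted edgeR p below 0.05 was reached by 6, among them Krt19, which was lower (log2 fold change -1.12). Over all genes tested, 26.3% had such a p and 9.10% were called. Pax8 was called higher, but its groups overlapped, at 0.290 to 4.49 CPM in BMPR2 DELX and 0.0584 to 0.315 CPM in ROSA. The 8 smooth muscle and pericyte markers summed to 9478 to 12174 CPM and 10516 to 13945 CPM, with Cspg4 lower and Notch3 higher. The 6 Schwann and neural markers summed to 10.7 to 13.9 CPM and 14.5 to 22.0 CPM, with Tubb3 lower and Sox10 at 0 counts. ROSA 1 stood apart in reads assigned to no gene, at 22.0%, against 14.7% to 17.3% in the other 7 libraries. The 16 AP-1 and early transcription factor genes stood high in ROSA 1 and ROSA 2. Their mean log2 CPM was 4.89, 4.97, 4.89 and 5.06 in BMPR2 DELX 1 to 4, against 6.71, 6.91, 5.28 and 5.19 in ROSA 1 to 4. What part these differences have in the results below was not tested, and in bulk RNA a change in the number of cells of a type and a change of RNA per cell cannot be told apart. With both ROSA 1 and ROSA 2 left out, 1.11% of 15440 genes were called, 0.415% higher and 0.699% lower, and 5 of the 11 members kept the call, namely Adamts4, Adamtsl1, Mmp10, Mmp16 and Timp3.

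Among collagenases and stromelysins, Mmp13 and Mmp10 fell together and Mmp11 rose. Mmp13, the main interstitial collagenase of the mouse (ENSMUSG00000050578, GRCm38 chromosome 9, 7272514 to 7283331), had 2.42, 1.86, 1.44 and 1.59 CPM in BMPR2 DELX 1 to 4, against 5.25, 5.05, 6.15 and 3.21 CPM in ROSA 1 to 4. The highest BMPR2 DELX library was below the lowest ROSA library. Its log2 fold change was -1.43, with an SE of 0.23 (edgeR adjusted p 0.0083). Mmp10, stromelysin 2, which cleaves proteoglycans and activates other MMPs (ENSMUSG00000047562, chromosome 9, 7502352 to 7510240), had 1.05, 1.30, 1.61 and 1.74 CPM in BMPR2 DELX, against 3.39, 4.22, 6.75 and 3.82 CPM in ROSA. The groups did not overlap, and the log2 fold change was -1.66 ± 0.25 (edgeR adjusted p 0.0065), the largest fall among the members tested. Both genes were highest in ROSA 3, and Mmp13 was lowest in ROSA 4 among the ROSA libraries. Their calls held without each library in turn, with log2 fold changes from -1.59 to -1.31 for Mmp13 and from -1.78 to -1.41 for Mmp10. Without both ROSA 1 and ROSA 2 the log2 fold change of Mmp13 was -1.34 and was not called (edgeR adjusted p 0.083).

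Mmp13 and Mmp10 belong to a cluster of 9 members on chromosome 9, from 7272514 to 7699585 in GRCm38, a span of 427 kb. Along the chromosome the members are Mmp13, Mmp12, Mmp1b, Mmp3, Mmp10, Mmp8, Mmp27, Mmp20 and Mmp7. Mmp3, stromelysin 1, which lies before Mmp10, had 0.687, 0.367, 0.440 and 0.693 CPM in BMPR2 DELX and 1.09, 0.631, 0.798 and 0.846 CPM in ROSA. These ranges overlapped, and its log2 fold change of -0.61 ± 0.29 was not called (edgeR adjusted p 0.21). Mmp8, the neutrophil collagenase, and Mmp27 had means of 0.396 and 0.392 CPM in BMPR2 DELX and 0.292 and 0.364 CPM in ROSA, and neither was called. Mmp1b, the enamel protease gene Mmp20 and the matrilysin gene Mmp7 were not tested. Mmp7 had no count in any library, which allows up to 3 counts, or 0.0687 to 0.104 CPM without TMM factors. Of the 10 neutrophil markers, S100a9 and Csf3r had 0 counts. Without TMM factors the marker sum was 0.618 to 0.742 CPM in BMPR2 DELX and 0.654 to 0.924 CPM in ROSA.

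Of the 9 cluster genes, 7 had the letters TGANTCA shortly before a start, while Mmp8 and Mmp27 had neither TGANTCA nor TATAAA there. The 250 bases before the RefSeq start (GRCm38.p6, plus strand, 5′ to 3′) are shown for the 2 called genes and for Mmp3. Mmp3 lies between them, as do Mmp12 and Mmp1b, which are not shown. Capitals mark TGANTCA, the letters bound by AP-1 factors, and TATAAA, the letters of a core promoter element.
Mmp13, chr9:7272264-7272513: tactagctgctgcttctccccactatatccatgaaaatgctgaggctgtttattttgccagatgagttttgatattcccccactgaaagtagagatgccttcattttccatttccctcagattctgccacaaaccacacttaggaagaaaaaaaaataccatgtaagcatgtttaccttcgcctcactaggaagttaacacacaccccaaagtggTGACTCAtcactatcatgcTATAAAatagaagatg
Mmp3, chr9:7445572-7445821: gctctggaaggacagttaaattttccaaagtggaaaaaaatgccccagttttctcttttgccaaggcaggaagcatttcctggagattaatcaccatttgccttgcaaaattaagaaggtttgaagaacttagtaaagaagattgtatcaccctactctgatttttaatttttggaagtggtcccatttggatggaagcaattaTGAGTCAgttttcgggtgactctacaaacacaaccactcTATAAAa
Mmp10, chr9:7502092-7502341: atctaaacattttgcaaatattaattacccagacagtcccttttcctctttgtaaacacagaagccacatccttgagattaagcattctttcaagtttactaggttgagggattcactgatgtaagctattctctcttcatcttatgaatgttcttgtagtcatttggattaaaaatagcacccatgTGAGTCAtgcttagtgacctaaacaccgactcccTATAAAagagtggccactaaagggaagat

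In these windows TGANTCA began 35, 46 and 63 bases before the start of Mmp13, Mmp3 and Mmp10, and TATAAA began 16, 7 and 29 bases before it. The tables held a window for 35 of the 50 members. TGANTCA, searched on both strands, was found in 7 of them, all 7 among the 9 cluster genes (Mmp13, Mmp12, Mmp1b, Mmp3, Mmp10, Mmp20 and Mmp7), and in 6.75% of all 32851 promoter windows of that length. A member counted if any of its windows matched, whereas the shares over all windows count each window alone. Of the 7, Mmp13 and Mmp10 were called lower, and Mmp1b, Mmp20 and Mmp7 were not tested. Mmp3 and Mmp12 were not called, with log2 fold changes of -0.61 and 0.87. TATAAA was found in 9 of the 35 members and in 12.4% of all windows, and the GC box GGGCGG in 20 of the 35 members, none (0) of them in the cluster, and in 32.7% of all windows. The AP-1 subunit gene Fosl1 fell to 47.2 ± 6.75 CPM in BMPR2 DELX, against 102 ± 25.0 CPM in ROSA (log2 fold change -1.11 ± 0.17, edgeR adjusted p 0.0083). Maff, a small partner of such factors, Klf6 and the nuclear receptor gene Nr4a2 also fell, by 0.68, 0.76 and 1.44 on the log2 scale. Of the AP-1 and early gene list, 4 of 16 fell, none (0) rose and 12 were not called, with a median log2 fold change of -1.10. At an unadjusted edgeR p below 0.05 the count was 14. Over all genes tested, 9.10% were called and 26.3% had such a p. The fall was uneven over the ROSA libraries. Mean log2 CPM of the list was 6.71 and 6.91 in ROSA 1 and ROSA 2, but 5.28 and 5.19 in ROSA 3 and ROSA 4. In BMPR2 DELX it was 4.89 to 5.06. A match of letters is a description of the window and no measure of binding or of use as a promoter element. Whether AP-1 factors have a part in these changes was not tested.

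Mmp11, stromelysin 3, which is activated inside the cell by furin and is typically made by stromal fibroblasts (ENSMUSG00000000901, chromosome 10, 75923222 to 75936496), had 57.9, 73.2, 105 and 109 CPM in BMPR2 DELX 1 to 4, against 44.4, 44.5, 46.2 and 52.6 CPM in ROSA 1 to 4. The groups did not overlap, but BMPR2 DELX 3 and 4 stood well above BMPR2 DELX 1 and 2. On the log2 scale the rise was 0.88 ± 0.19 (edgeR adjusted p 0.024). Its call was lost without BMPR2 DELX 4, ROSA 1, ROSA 2 or ROSA 3, with log2 fold changes of 0.75 to 1.04 and adjusted p of 0.0096 to 0.079 over the 8 such fits. Without both ROSA 1 and ROSA 2 it was 0.82, not called (adjusted p 0.21).

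The gelatinase Mmp2 rose and was the second most abundant MMP per length. Mmp2, which degrades denatured collagen and basement membrane collagen (ENSMUSG00000031740, chromosome 8, 92827291 to 92853420), had 258, 295, 369 and 272 CPM in BMPR2 DELX 1 to 4, against 112, 144, 211 and 182 CPM in ROSA 1 to 4. No library of one group lay within the other, and ROSA 1 and ROSA 2 were the lowest. The difference was 1.84-fold, a log2 fold change of 0.88 ± 0.19 (edgeR adjusted p 0.027). The call was lost without BMPR2 DELX 2, BMPR2 DELX 3, BMPR2 DELX 4 or ROSA 2, with log2 fold changes of 0.75 to 1.03 and adjusted p of 0.019 to 0.084 over the 8 fits without 1 library. With both ROSA 1 and ROSA 2 left out it was 0.62, not called (edgeR adjusted p 0.11). The other gelatinase, Mmp9, a typical leukocyte product, was near the lower limit at 0.444 ± 0.135 CPM in BMPR2 DELX, against 0.203 ± 0.156 CPM in ROSA, and was not called (edgeR adjusted p 0.20).

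Of the 5 tested membrane-type MMPs, Mmp16 fell and 4 were not called. Mmp16, a transmembrane MMP (ENSMUSG00000028226, chromosome 4, 17852893 to 18119145), had 3.73, 3.86, 4.11 and 5.41 CPM in BMPR2 DELX, against 9.91, 12.5, 11.4 and 9.43 CPM in ROSA. The ranges were far apart, with a 2.52-fold higher level in ROSA. The log2 fold change was -1.34 ± 0.15 (edgeR adjusted p 0.0022), and the call held without each library in turn and without both ROSA 1 and ROSA 2 (-1.27, adjusted p 0.023). Mmp14, the membrane-type enzyme that activates the Mmp2 precursor together with Timp2, was the most abundant MMP. It had 629, 621, 776 and 770 CPM in BMPR2 DELX, against 705, 608, 493 and 618 CPM in ROSA, ranges that overlapped. Its log2 fold change of 0.21 ± 0.12 was not called (edgeR adjusted p 0.30). Mmp17, which is anchored by a lipid, had 40.4 ± 6.51 CPM in BMPR2 DELX, against 38.7 ± 5.34 CPM in ROSA, Mmp15 had 2.99 ± 0.405 and 2.37 ± 0.384 CPM, and Mmp24 had 1.04 ± 0.353 and 1.11 ± 0.231 CPM.

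Of the MMPs outside these classes, Mmp19 and Mmp23 rose. Mmp19, a secreted enzyme that cleaves basement membrane proteins (ENSMUSG00000025355, chromosome 10, 128790910 to 128800824), had 25.2, 23.4, 33.0 and 28.0 CPM in BMPR2 DELX, against 17.6, 17.4, 18.7 and 19.2 CPM in ROSA. The ROSA libraries were tight, with a coefficient of variation of 4.58%, and all lay below BMPR2 DELX. Mmp19 rose by 0.59 ± 0.11 on the log2 scale (edgeR adjusted p 0.012), called without each single library but not without both ROSA 1 and ROSA 2 (0.55, adjusted p 0.11). Mmp19 overlaps Tmem198b on the opposite strand, and its call was the same with unstranded counts. Mmp19 and Mmp3 each share a stretch of near-identical sequence with another gene model, Gm47093 and Gm15242, so their counts may be less certain. The Gm47093 stretch matched Mmp19 on the opposite strand over 161 bases. Overlap on the genome was checked only among the counted genes, so whether this stretch is a separate copy was not established. Mmp23, a membrane-tethered MMP released by cleavage (ENSMUSG00000029061, chromosome 4, 155650655 to 155653384), had 32.8, 35.7, 43.7 and 45.6 CPM in BMPR2 DELX, against 19.5, 23.4, 27.4 and 29.0 CPM in ROSA. The groups did not overlap. Mmp23 rose by 0.67 ± 0.14 on the log2 scale (edgeR adjusted p 0.023), and the call was lost without BMPR2 DELX 3, BMPR2 DELX 4 or ROSA 2 (adjusted p 0.022 to 0.072 over the 8 fits), and without both ROSA 1 and ROSA 2 (0.50, adjusted p 0.15). Mmp28, epilysin, had 3.44, 3.89, 3.20 and 4.71 CPM in BMPR2 DELX, against 2.98, 2.89, 1.83 and 2.45 CPM in ROSA. Its groups did not overlap, yet its log2 fold change of 0.59 ± 0.19 was not called (edgeR adjusted p 0.089).

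Mmp12, the macrophage elastase, varied widely between libraries of the same group. It had 2.62, 0.367, 4.96 and 0.916 CPM in BMPR2 DELX 1 to 4, against 0.0932, 0.849, 2.10 and 1.81 CPM in ROSA 1 to 4. Its coefficients of variation were 93.3% in BMPR2 DELX, the highest of the tested members there, and 75.6% in ROSA, and it was not called (edgeR adjusted p 0.58). The summed macrophage markers, in CPM without TMM factors, were 53.3, 42.2, 74.0 and 53.6 CPM in BMPR2 DELX 1 to 4. In ROSA 1 to 4 they were 25.6, 31.7, 37.5 and 38.7 CPM. Within each group Mmp12 was highest in replicate 3, and in BMPR2 DELX the marker sum was highest in the same library.

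**Figure D2:**
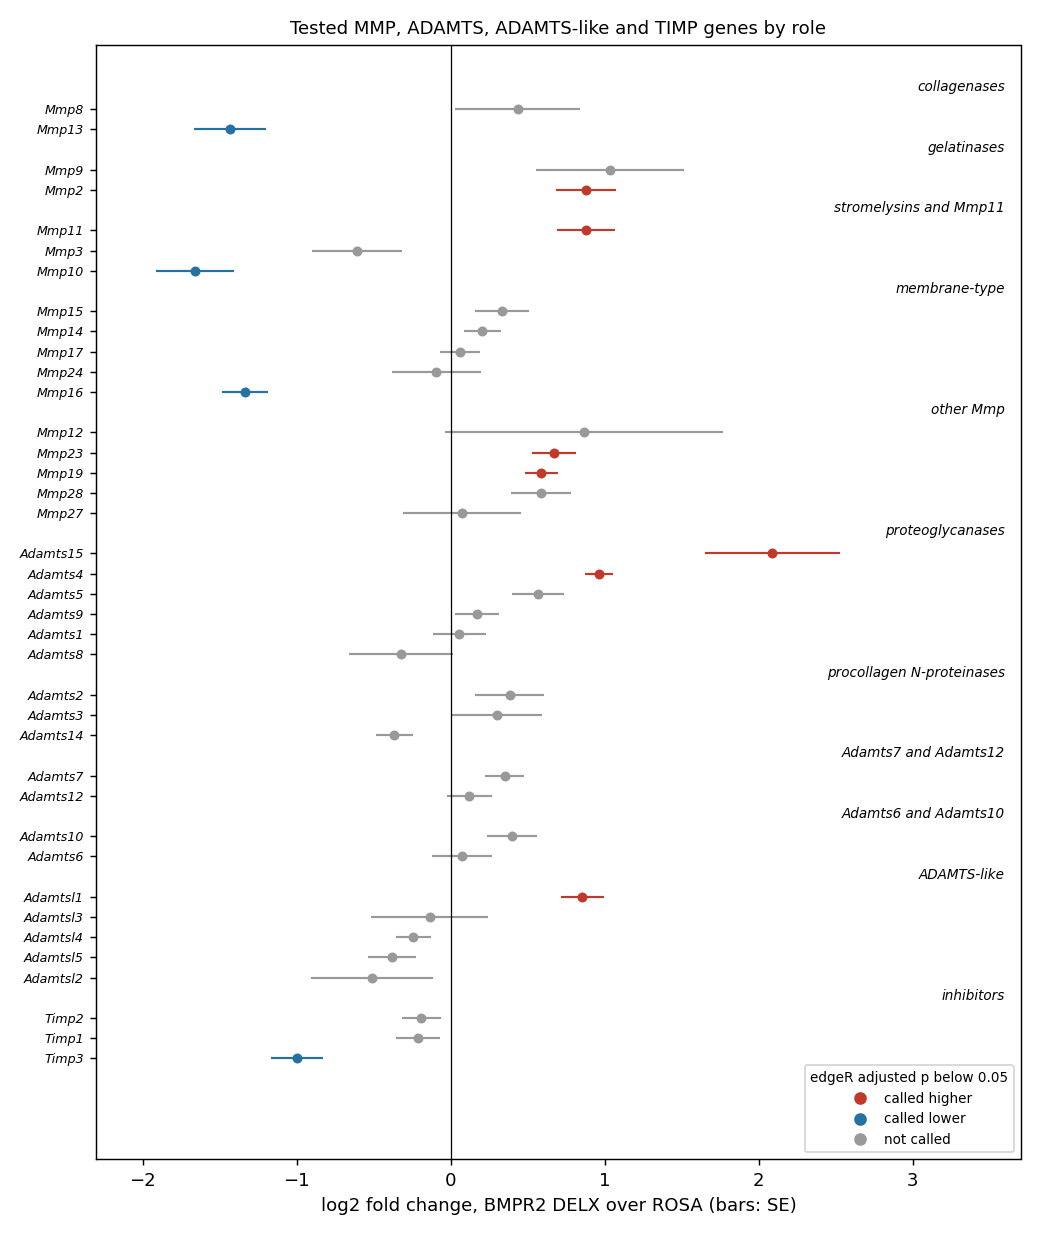
Log2 fold change of BMPR2 DELX over ROSA for the 38 tested members, grouped by role, with bars for the SE. Red and blue points passed the edgeR test at an adjusted p below 0.05, with Adamts15 the largest rise at 2.09 and Mmp10 the largest fall at -1.66. Adamts15 passed the count filter through BMPR2 DELX libraries alone, so a difference was built into its being tested.

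Among the 6 tested ADAMTS proteoglycanases, which cut aggrecan and versican, Adamts4 and Adamts15 rose and 4 were not called. Adamts4, an aggrecanase (ENSMUSG00000006403, chromosome 1, 171250421 to 171260637), had 36.5, 33.5, 38.7 and 37.9 CPM in BMPR2 DELX, against 16.5, 17.7, 19.8 and 21.1 CPM in ROSA. Its BMPR2 DELX libraries varied by only 6.26% around their mean and all stood well above ROSA. The difference was 1.95-fold, a log2 fold change of 0.97 ± 0.09. Its edgeR adjusted p of 0.0013 was the smallest of the members tested, and the call held without each library and without both ROSA 1 and ROSA 2. Adamts15 (ENSMUSG00000033453, chromosome 9, 30899155 to 30922452) had 24, 16, 27 and 44 counts in BMPR2 DELX, against 8, 4, 2 and 10 counts in ROSA. That is 0.753 ± 0.221 CPM in BMPR2 DELX, against 0.176 ± 0.111 CPM in ROSA, with no overlap. Adamts15 rose by 2.09 ± 0.44 on the log2 scale (edgeR adjusted p 0.020), lost without ROSA 2 (adjusted p 0.067) and without both ROSA 1 and ROSA 2 (adjusted p 0.14). Adamts15 reached the level required for testing in BMPR2 DELX libraries and in 0 of the ROSA libraries, so a difference was built into its being tested.

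Adamts5, the other main aggrecanase and the most abundant ADAMTS gene per length, had 337, 458, 577 and 573 CPM in BMPR2 DELX, against 388, 297, 306 and 323 CPM in ROSA. BMPR2 DELX 1 lay within the range of ROSA, and the other 3 BMPR2 DELX libraries lay above it. The log2 fold change of 0.57 ± 0.17 was not called (edgeR adjusted p 0.065), and without BMPR2 DELX 1 it was 0.72 and called (adjusted p 0.015). Adamts1, its neighbour on chromosome 16, had 107, 159, 168 and 183 CPM in BMPR2 DELX, against 184, 151, 128 and 132 CPM in ROSA, with full overlap. Its log2 fold change was 0.06 ± 0.17 (edgeR adjusted p 0.87). Adamts9 had 23.6 ± 3.25 CPM in BMPR2 DELX, against 20.9 ± 3.79 CPM in ROSA, and Adamts8, which lies beside Adamts15 on chromosome 9, had 0.346 ± 0.0371 and 0.437 ± 0.181 CPM.

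None of the 3 procollagen N-proteinases was called, a count of 0 against 1 at an unadjusted edgeR p below 0.05. Adamts2, which removes the amino propeptide of fibrillar procollagens, had 228 ± 39.1 CPM in BMPR2 DELX, against 175 ± 52.2 CPM in ROSA. Adamts14 had 11.4, 10.7, 15.1 and 14.3 CPM in BMPR2 DELX, against 15.2, 16.7, 17.4 and 17.2 CPM in ROSA. These ranges nearly met but did not overlap, and the log2 fold change of -0.37 ± 0.12 had an edgeR adjusted p of 0.086. DESeq2 called Adamts14, and it called no other of the 3. Adamts3 had 0.780 ± 0.179 and 0.629 ± 0.202 CPM. Col3a1, which encodes one of the fibrillar procollagens, rose by 1.25 ± 0.12 on the log2 scale, while Col1a1, Col1a2 and Col5a1 had log2 fold changes of 0.24, 0.11 and 0.20 and were not called (edgeR adjusted p 0.28, 0.66 and 0.34).

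The other ADAMTS genes were not called. Adamts12 and Adamts7, which cleave cartilage oligomeric matrix protein, had 147 ± 24.1 and 9.69 ± 1.45 CPM in BMPR2 DELX, against 136 ± 24.5 and 7.60 ± 0.708 CPM in ROSA. Adamts10 and Adamts6, which act on fibrillin microfibrils, had 30.7 ± 3.11 and 35.3 ± 10.05 CPM in BMPR2 DELX, against 23.3 ± 5.91 and 33.5 ± 4.81 CPM in ROSA. Adamts10 was lowest in ROSA 1 and ROSA 2, at 19.2 and 17.8 CPM, against 30.6 and 25.5 CPM in ROSA 3 and ROSA 4, and without ROSA 3 it was called higher (0.56, edgeR adjusted p 0.045). Adamts13, the protease of von Willebrand factor, and Adamts16 to Adamts20 were too low to be tested.

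Of the 5 ADAMTS-like genes, Adamtsl1 rose and 4 were not called. Adamtsl1, also named punctin (ENSMUSG00000066113, chromosome 4, 85514172 to 86428385), had 16.95, 18.2, 21.0 and 20.1 CPM in BMPR2 DELX, against 9.88, 7.98, 12.6 and 11.8 CPM in ROSA. The groups were clearly separate, by 1.81-fold. Adamtsl1 rose by 0.86 ± 0.14 on the log2 scale (edgeR adjusted p 0.0084), and it was 0.66 without both ROSA 1 and ROSA 2, still called (adjusted p 0.046). The other 4 had negative log2 fold changes. Adamtsl5 had 39.1, 49.6, 60.6 and 64.9 CPM in BMPR2 DELX, against 69.7, 60.8, 81.0 and 67.6 CPM in ROSA, with BMPR2 DELX 4 inside the ROSA range. It was the most abundant ADAMTS-like gene per length and was not called (-0.38 ± 0.15, edgeR adjusted p 0.15). Adamtsl4, a fibrillin-binding protein, had 35.6, 37.2, 34.3 and 45.8 CPM in BMPR2 DELX, against 42.3, 46.3, 39.7 and 52.8 CPM in ROSA. These ranges overlapped, and its log2 fold change was -0.24 ± 0.11 (edgeR adjusted p 0.21).

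Timp3 was the 1 inhibitor that fell. Timp3 (ENSMUSG00000020044, chromosome 10, 86300372 to 86349506), the matrix-bound inhibitor of MMPs, of the sheddase Adam17 and of aggrecanases, had 976, 980, 1141 and 1115 CPM in BMPR2 DELX 1 to 4, against 2491, 2648, 1663 and 1594 CPM in ROSA 1 to 4. Every BMPR2 DELX library was below every ROSA library, and ROSA 1 and ROSA 2, where the early genes stood high, were the highest. Its log2 fold change was -0.995 ± 0.17 (edgeR adjusted p 0.011), and the call held without each library in turn, from -1.11 to -0.86. Without both ROSA 1 and ROSA 2 it was -0.61, still called (edgeR adjusted p 0.035). Timp3 overlaps Syn3, which lies on the opposite strand and had 6.001 CPM, without TMM factors, on its own strand.

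Timp1 and Timp2 were not called. Timp1, the most abundant member per length, had 1296, 1051, 1519 and 1326 CPM in BMPR2 DELX, against 1326, 1318, 1901 and 1469 CPM in ROSA. Timp2 had 955, 1197, 1136 and 1501 CPM in BMPR2 DELX, against 1451, 1445, 1215 and 1359 CPM in ROSA. Both genes had overlapping groups, with log2 fold changes of -0.21 ± 0.14 and -0.19 ± 0.13, each at an edgeR adjusted p of 0.37. Timp4, a TIMP found in adipose tissue and heart, had at most 0.0687 CPM without TMM factors in any library.

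**Figure D3:**
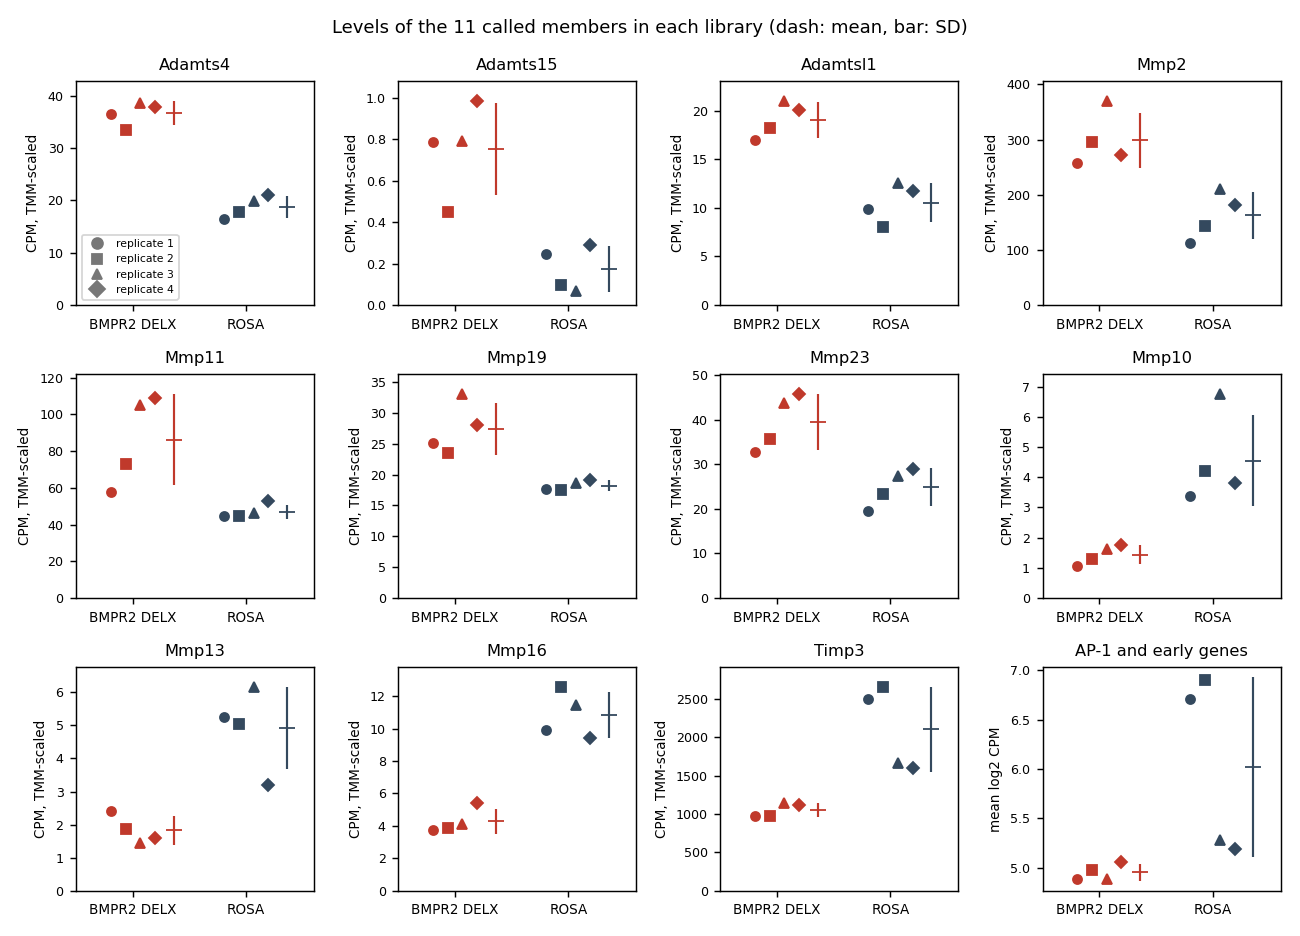
TMM-scaled CPM of the 11 called members in every library, BMPR2 DELX left and ROSA right, with mean and SD of 4 libraries, and in the last panel the mean log2 CPM of 16 AP-1 and early transcription factor genes. No panel of a called member shows overlap, and ROSA 1 and ROSA 2 stand high in the early genes and in Timp3, while Mmp10 and Mmp13 are highest in ROSA 3.

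Levels of different genes were compared as CPM per kb of annotated exon, the mean over libraries divided by the merged exon length. Timp1 was first at 1462 ± 216 CPM per kb in BMPR2 DELX and 1693 ± 308 CPM per kb in ROSA. Timp2 followed at 307 ± 58.4 and 351 ± 28.3 CPM per kb, and Timp3 was next at 129 ± 10.7 and 258 ± 67.3 CPM per kb. In BMPR2 DELX, Timp3 differed from Mmp14, at 117 ± 14.4 CPM per kb, by less than their SDs together, while in ROSA it stood above Mmp14, at 102 ± 14.6 CPM per kb. Mmp2 had 88.6 ± 14.7 and 48.2 ± 12.9 CPM per kb, Adamts5 had 45.1 ± 10.6 and 30.4 ± 3.84 CPM per kb, and Adamts1 had 29.1 ± 6.27 and 28.0 ± 4.80 CPM per kb. The called genes were spread over this order, and Mmp10, Mmp13, Mmp16, Adamtsl1 and Adamts15 all had less than 3 CPM per kb in both groups.

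**Figure D4:**
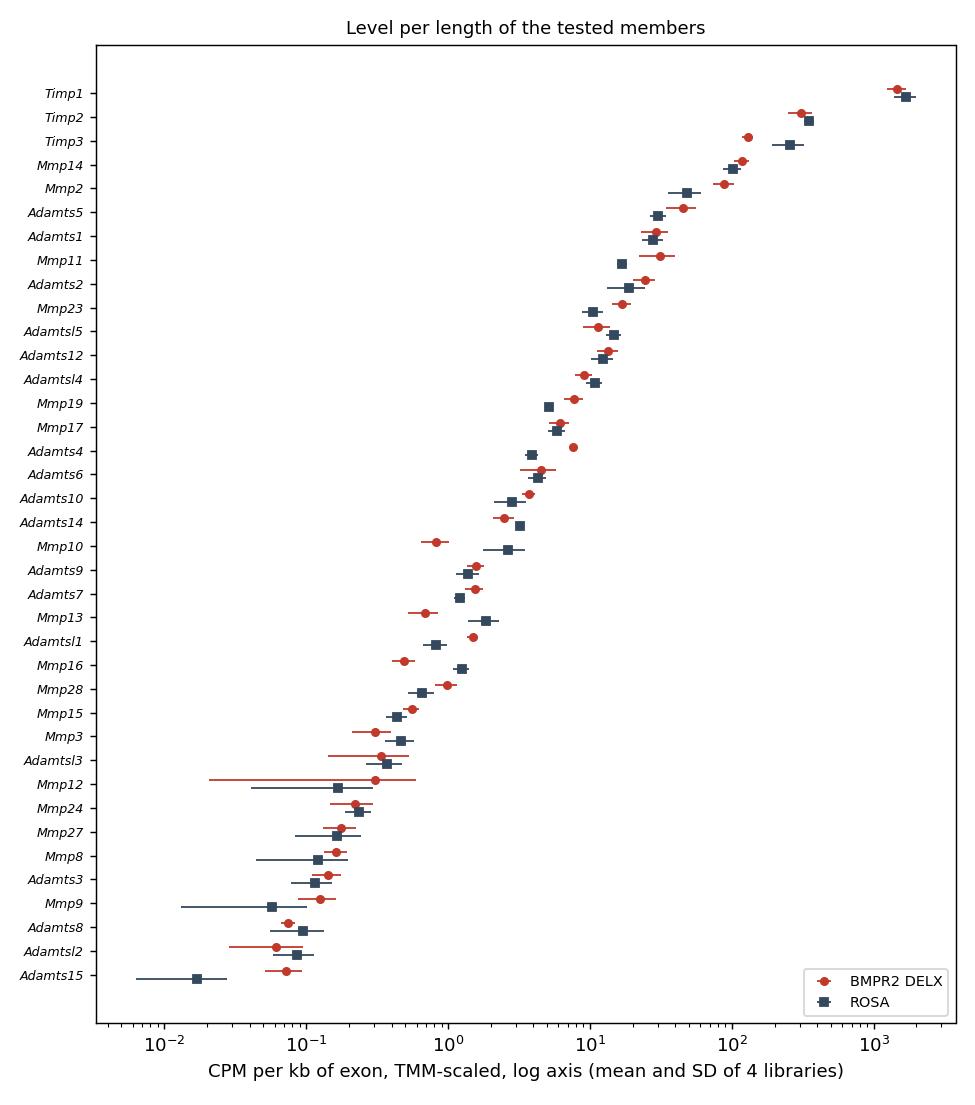
Mean TMM-scaled CPM per kb of exon of the 38 tested members on a log axis, with SD over 4 libraries, red circles for BMPR2 DELX and dark squares for ROSA. Timp1 is at the top with 1462 CPM per kb in BMPR2 DELX, followed by Timp2, Timp3, Mmp14 and Mmp2, in the order of the mean of both groups.

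The 12 members left out by the filter were Mmp1b, Mmp7, Mmp20, Mmp21, Mmp25, Adamts13, Adamts16, Adamts17, Adamts18, Adamts19, Adamts20 and Timp4. They had at most 13 counts in a library, or 0.386 CPM without TMM factors. Of the tested members, 8 had a mean under 1 CPM, among them Adamts15, Mmp3 and Mmp9.

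Genes that activate, bind or oppose these proteases moved in both directions. Of 23 such genes, 19 were tested, 1 was higher, 4 were lower and 14 were not called, with a median log2 fold change of -0.11. Over all genes tested, 9.10% were called, 3.96% higher and 5.15% lower. The urokinase receptor gene Plaur, which focuses plasmin formation at the cell surface, fell to 127 ± 14.1 CPM in BMPR2 DELX, against 234 ± 34.9 CPM in ROSA (edgeR adjusted p 0.0033). Cd44, a hyaluronan receptor that docks MMPs, fell by 0.51 on the log2 scale (adjusted p 0.012). Tfpi2, a serine protease inhibitor of the matrix, had 18.8 ± 9.504 CPM in BMPR2 DELX, against 58.5 ± 16.8 CPM in ROSA, and fell by 1.64 (adjusted p 0.029). The proprotein convertase gene Pcsk5 rose by 0.65 ± 0.17 (adjusted p 0.041). Reck, a membrane-anchored MMP inhibitor, had 28.6 ± 3.38 CPM in BMPR2 DELX, against 23.8 ± 1.52 CPM in ROSA, and was not called (adjusted p 0.10).

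Of 18 related metalloproteinases outside the families, 14 were tested, with 1 higher, 1 lower and 12 not called, and a median log2 fold change of 0.07. The share called over all genes tested, the background for this list and the next, was 9.10%. Tll1, a tolloid-like procollagen C-proteinase, fell to 84.4 ± 10.98 CPM in BMPR2 DELX, against 187 ± 34.8 CPM in ROSA (log2 fold change -1.15 ± 0.15, edgeR adjusted p 0.0034). Its relative Bmp1 had 516 ± 68.1 CPM in BMPR2 DELX, against 422 ± 44.5 CPM in ROSA, and was not called (adjusted p 0.12). Adam17, the sheddase inhibited by Timp3, rose by 0.24 ± 0.05 (adjusted p 0.027). Of 24 matrix substrates, 19 were tested, with 2 higher, 3 lower and 14 not called, and a median of -0.06. Besides Col3a1, the laminin chain gene Lama1 rose by 1.21 ± 0.24 on the log2 scale (edgeR adjusted p 0.020). Tenascin C, Tnc, fell to 986 ± 40.1 CPM in BMPR2 DELX, against 1922 ± 181 CPM in ROSA, a log2 fold change of -0.96 ± 0.08 (adjusted p 0.00085). The aggrecan gene Acan, the classical substrate of Adamts4, had at most 11 counts in a library. Versican, Vcan, another substrate, had 184 ± 27.6 CPM in BMPR2 DELX, against 199 ± 35.6 CPM in ROSA, and was not called (adjusted p 0.66).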

How the data were processed

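The authors deposited 1 file of raw read counts per Ensembl gene for each of the 8 samples. GRCm38, STAR 2.5.2b and HTSeq are named without role or order, per the submitters' processing notes, and the annotation release is not given in the sources used here. The files hold unstranded, same-strand and opposite-strand counts. The opposite-strand column was used, which held 92.1% to 94.0% of stranded counts. Lines naming no gene (14.7% to 22.0% of reads) were left out.

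GENCODE M21 (GRCm38) supplied symbols, biotypes and positions for 49412 of 49671 IDs. Genes passing filterByExpr were fitted in edgeR 4.0.16 (R 4.3.3) with TMM factors and its robust quasi-likelihood test, with Benjamini-Hochberg adjustment over all 14887 genes. In simulated counts this test called 21 of 65 planted log2 changes of 0.5, 48 of 67 of 1 and 56 of 62 of 2. A gene that was not called may thus still differ. The SE is the size of the log2 fold change divided by the square root of F. Limits given by the floor of 3 counts cover counting error only. Shared sequence was found with blastn 2.17.0 (at least 95% identity over 150 bases). Promoter sequences are from RefSeq (GRCm38.p6). Values in every library are given for called members, members without overlap and the 2 most abundant per length of each family; some others were added after their values were seen. Of each list of other genes, up to 4 called genes by smallest p are named, and 1 of these is not reported here. Members and lists were chosen with earlier results of these data known.

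Alternatives were DESeq2 1.42.0, voom in limma 3.58.1, upper-quartile or relative log expression factors, no count filter, 1 CPM in 4 libraries, unstranded counts, a replicate block, and leaving out each library. Leaving out ROSA 1 and ROSA 2 together was added after seeing the data.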

Additional observations from a re-analysis of the deposited data

Results flagged for a closer look

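Among the 76 groups of 4 libraries checked (38 tested members in each of the 2 groups), 2 had 1 library far from the other 3, and chance flags about 1 in 20 such groups. Mmp15, a membrane-type MMP, had 1.80 CPM in ROSA 3, against 2.52 to 2.60 CPM in the other ROSA libraries. Mmp9, the leukocyte gelatinase, had 0.437 CPM, or 18 counts, in ROSA 2, against 0.117 to 0.133 CPM in the other ROSA libraries, which had 4 counts each. Without ROSA 2 the log2 fold change of Mmp9 was 1.79, with an edgeR adjusted p of 0.059.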

How the results depend on the processing

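The 4 lower members kept the call in each of the 8 fits without 1 library, and the number of higher members ran from 3 to 8, against 7 with all libraries. It was lowest without ROSA 2, where Adamts15, Mmp2, Mmp11 and Mmp23 were lost, and it was 4 without BMPR2 DELX 4. Over all genes such fits called 213 to 545 higher and 264 to 721 lower, against 589 and 766. With both ROSA 1 and ROSA 2 left out, 2 members were higher and 3 lower, and 64 and 108 genes in all, in a fit with fewer samples. DESeq2 called 1070 higher and 1228 lower genes, and of the members Adamts5, Adamts14 and Mmp28 besides the same 11. With upper-quartile factors 54.8% of all calls were higher, against 43.5% with TMM, and the members stayed at 7 and 4. Mmp2 and Mmp11 were lost with no count filter, where 28614 genes were tested. The samples share only replicate numbers: deviations of same-numbered libraries correlated at 0.005, 0.21, 0.24 and 0.093 for numbers 1 to 4, BMPR2 DELX 1 and 4 were not closest to their own numbers, and a replicate block called 7 and 4 members and 1245 genes in all. Members that were not called changed sign in some fits. Leaving out 1 library gave log2 fold changes of -0.037 to 0.20 for Adamts1, -0.11 to 0.20 for Adamts6, -0.59 to 0.071 for Adamtsl3, -0.038 to 0.13 for Mmp17, -0.25 to 0.10 for Mmp24 and -0.11 to 0.43 for Mmp27. Without ROSA 1 and ROSA 2, values were -0.029 for Adamts12, -0.079 for Adamts6, 0.19 for Adamtsl3 and -0.074 for Mmp27. The cause was not tested. Members under 1 CPM rest on few counts.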
